A study of Mus musculus with 4 samples.

Results

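Complement is described here through 29 genes of its components, regulators and receptors, read in Clu-reporter kidney cells after ischemia-reperfusion injury. The 29 symbols were given as a list, C1qa, C1qb, C1qc, C1ra, C1s1, Masp1, Masp2, Ptx3, C2, C4b, C3, Cfb, Cfd, Cfp, C6, C7, Cfi, Serping1, Cd55, Cd59a, Cd46, Cr1l, C3ar1, C5ar1, C5ar2, Itgam, Itgax, Vsig4 and Saa3. All 29 were found among the 27998 gene rows of each count matrix. Kidneys taken 2, 7 and 30 days after injury were set beside untreated ones, with 1 droplet single-cell library for each of the 4 groups. All mice, untreated ones included, carried BAC-CluGFP, a transgene that ties green fluorescent protein (GFP) to Clu, the gene of the secreted chaperone clusterin. The 3 injured groups had ischemia-reperfusion injury (IRI) with 35 min of ischemia and were sampled at day 2 (48 h), day 7 and day 30. Kidneys were digested to single cells and GFP-positive cells were collected by flow sorting, so cells without the reporter signal are missing by design. The sources used here give neither the strain, age and number of animals behind a library nor whether one or both kidneys were injured.

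Complement is a protease cascade of blood and tissue. C1q, a protein of 3 chain types, binds immune complexes and dying cells and activates the proteases C1r and C1s, which cleave C4 and C2, and the products cleave C3. The lectin pathway enters at the same step through the MASP proteases, and the alternative pathway amplifies C3 cleavage through factors B, D and properdin. Cleavage products act on receptors of myeloid cells or start the membrane attack complex of C5 to C9, and host cells are protected by soluble and membrane-bound regulators. The liver makes most circulating complement, whereas kidney tubules are known to make C3 locally.

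The libraries held 1930 to 9286 barcodes and 49397016 to 98818914 unique molecular identifiers (UMIs), counts of captured transcripts, and 23190 of 27230 barcodes were kept as cells. The lowest UMI total of a barcode was 2335, 3881, 18362 and 5976 in time order from untreated to day 30, so the day 7 library has no shallow cells. Kept cells of the 3 injured libraries had a median of 2.82 to 3.68% mitochondrial UMIs, against 14.5% in the untreated library. Cells were sorted into 18 classes by marker panels that contain none of the 29 genes, and 18070 cells were gated. The best score of 2005 cells was between 1.35 and 1.65 times the second, near the gate's margin of 1.5. Ungated cells made up 16.3, 13.8, 37.4 and 34.3% of the kept cells in time order. The gate for Ncam1, Wnt16 and Cldn1, written for parietal epithelium, rests on only 3 markers and is called by those genes. Between 3 and 14 kept barcodes were shared by any pair of libraries. After thinning to 2000 UMIs a cell, 194 of 2898 untreated proximal tubule cells and 622 of 2652 day 2 macrophages held a Clu UMI. At that depth a cell with little Clu can give none, so these shares do not say which sorted cells lack the transcript.

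A level is given as CPM, a gene's UMIs scaled to 1000000 UMIs of its class and library, with an exact 95% Poisson interval in brackets where it matters. These are 3′ counts, not scaled to gene length, so levels are compared between classes and times and not between genes. With 1 library per group there is no spread between replicates and no test: intervals cover counting error only, and animal, sort and capture cannot be told apart from time after injury. A gene was measured in a comparison at 20 CPM or more in either library and 20 UMIs in both together. A call of higher or lower needed a difference of at least 2-fold and a counting interval of the ratio that left out 1. A class was compared if it had at least 50 cells in both libraries, which gave 19 comparisons with untreated cells and 10 of day 30 with day 2. Of the 29 genes, 21 were measured in at least 1 of these 29 comparisons and 8 in none. The comparisons at days 2, 7 and 30 share the untreated library, and their values are set side by side only.

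The regulatory sequence of 4 members is shown because these genes carry the patterns described below, C1q in macrophages, C3 in tubule cells and Itgam in myeloid cells. Each is the 250 bases before the RefSeq start in build GRCm38.p6, written 5′ to 3′ on the gene's strand, at chr4:136886201-136886450 (minus strand) for C1qb, chr4:136892915-136893164 (minus) for C1qc, chr17:57228137-57228386 (minus) for C3 and chr7:128062390-128062639 (plus) for Itgam. Capitals mark matches to GAGGAA (ETS family, PU.1 type), the NF-kappaB motif (GGG and CC with 5 bases between) or TTGCNNAA (C/EBP), searched on both strands with overlaps allowed.
C1qb: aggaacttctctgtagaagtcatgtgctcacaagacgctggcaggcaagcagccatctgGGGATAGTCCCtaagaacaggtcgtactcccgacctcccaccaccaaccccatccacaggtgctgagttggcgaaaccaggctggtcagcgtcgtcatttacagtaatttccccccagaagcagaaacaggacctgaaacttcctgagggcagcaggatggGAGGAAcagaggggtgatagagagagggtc
C1qc: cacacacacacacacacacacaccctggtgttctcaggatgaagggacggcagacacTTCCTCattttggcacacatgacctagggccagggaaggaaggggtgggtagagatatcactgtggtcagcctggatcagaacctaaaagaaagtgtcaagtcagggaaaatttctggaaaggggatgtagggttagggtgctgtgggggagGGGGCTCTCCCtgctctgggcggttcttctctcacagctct
C3: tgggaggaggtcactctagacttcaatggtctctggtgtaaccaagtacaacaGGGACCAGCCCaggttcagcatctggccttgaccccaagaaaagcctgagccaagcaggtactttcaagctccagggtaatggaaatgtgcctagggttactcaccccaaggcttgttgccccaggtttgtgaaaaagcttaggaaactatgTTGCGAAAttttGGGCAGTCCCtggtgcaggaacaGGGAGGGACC
Itgam: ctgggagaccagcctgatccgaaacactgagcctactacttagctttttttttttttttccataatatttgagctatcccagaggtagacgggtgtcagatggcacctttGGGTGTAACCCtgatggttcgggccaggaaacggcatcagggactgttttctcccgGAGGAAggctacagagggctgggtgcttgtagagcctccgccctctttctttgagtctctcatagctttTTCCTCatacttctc
Counting from -1 at the base before the start, GAGGAA or its reverse complement begins at -30 in C1qb, -193 in C1qc, and -84 and -15 in Itgam. In C3, TTGCNNAA begins at -45 and the NF-kappaB motif at -197, -196, -33 and -10. Of 32851 mouse promoters of this length, GAGGAA occurs in 23.3%, the NF-kappaB motif in 45.8%, the STAT motif TTCNNNGAA in 7.02% and TTGCNNAA in 9.56%. Of the 24 listed starts of the 22 members matched in the RefSeq table, 6, 13, 2 and 5 hold them in that order. A match describes letters in this window and is not a binding site.

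**Figure D1:**
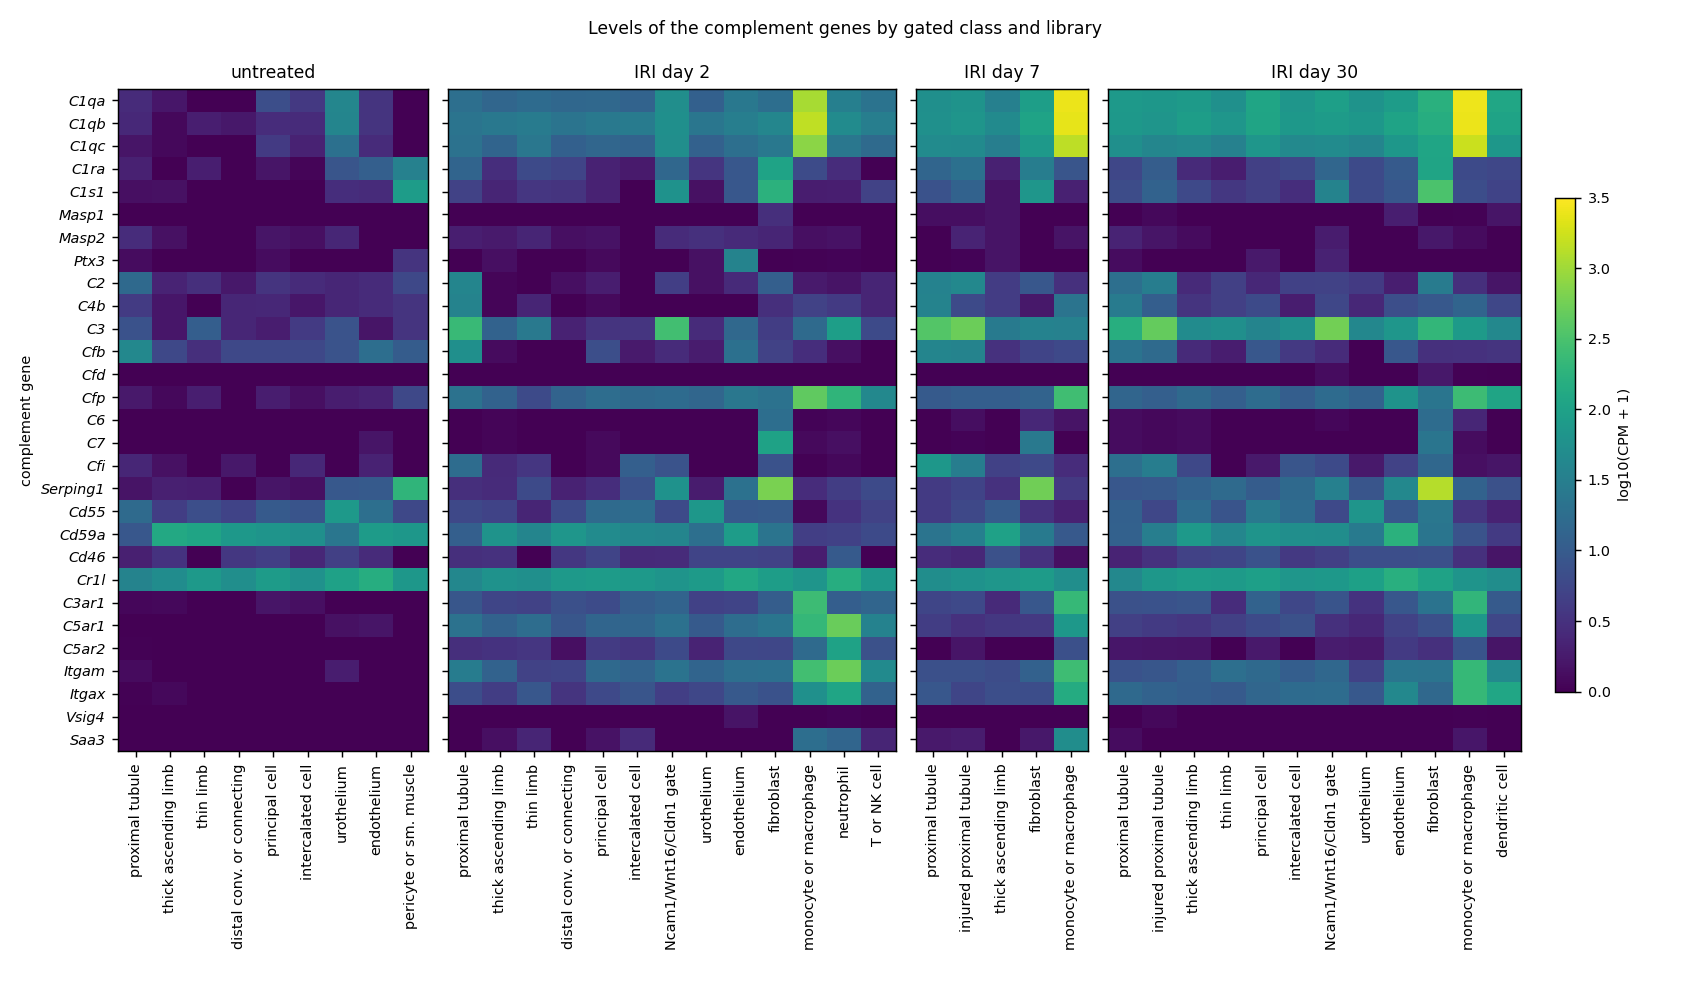
Heat map of log10(CPM + 1) for the 29 complement genes (rows) in each gated cell class (columns), with 1 panel each for the untreated, IRI day 2, day 7 and day 30 libraries. C1q chains stand out in macrophages, C5ar1 and Itgam in neutrophils at day 2, C3 in tubule classes, and C1s1, Serping1 and C7 in fibroblasts.

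C1q was a macrophage transcript at every time it could be read. C1qa, C1qb and C1qc encode the 3 chains of C1q and lie next to each other on the minus strand of chromosome 4 (136895917-136898803, 136880129-136886187 and 136889804-136893065 in mm10). In cells gated as monocytes or macrophages, C1qa stood at 1085 (1074-1096), 2472 (2436-2508) and 2556 CPM (2531-2581) at days 2, 7 and 30. C1qb stood at 1461, 2351 and 2475 CPM and C1qc at 779, 1438 and 1641 CPM in the same order. Day 7 and day 30 were close to each other and day 2 was lowest for all 3 chains. At day 30 against day 2, C1qa was 2.36-fold (2.32-2.39) and C1qc 2.11-fold (2.07-2.14) higher, and C1qb was under the 2-fold limit. The C1qa and C1qc calls fell under 2-fold when only the deepest cells were used and when cells took the class of their cluster, with C1qa down to 1.92-fold and C1qc down to 1.74-fold.

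The share of macrophages with C1q was also lowest at day 2, and it was slightly higher at day 7 than at day 30. After thinning each cell to 2000 UMIs, 62.4, 90.6 and 86.0% of macrophages held a UMI of any chain at days 2, 7 and 30, and 80.5, 99.7 and 98.0% did so without thinning. Day 2 neutrophils, which should lack C1q, gave 18.8% after thinning. Before thinning, day 2 macrophages had a median of 11733.5 UMIs and neutrophils 5104. All 3 chains together were seen in 36.7, 65.9 and 62.7% of thinned macrophages. Macrophages held 91.2, 77.9 and 82.4% of all C1qa UMIs of their libraries. The untreated library had only 13 gated macrophages, too few to compare, and 55.3% of its 1015 C1qa UMIs lay in ungated cells.

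Outside macrophages C1qa was measured in 13, C1qb in 19 and C1qc in 12 of the 19 comparisons with untreated cells. They were called higher in 11, 17 and 12 of these, and C1qa was lower in 1. Of all measured genes, 3.26 to 42.2% were higher and 2.75 to 14.6% lower across the 19 comparisons. The C1q calls are given beside the level of other macrophage transcripts in the same cells. In the proximal tubule gate C1qa stood at 1.73, 18.2, 54.3 and 75 CPM from untreated to day 30, which is 43.4-fold higher at day 30 than in untreated cells. In the thick ascending limb gate it stood at 0.622, 13.5, 32.5 and 80.3 CPM, 129-fold (43.7-629) at day 30. Across the tubular, urothelial, endothelial, fibroblast and Ncam1 gates, C1q ran between 0.996 and 6.68% of the macrophage level at day 2, between 1.31 and 5.41% at day 7, and between 2.06 and 6.95% at day 30. The 13 background genes, leukocyte transcripts such as Lyz2, Tyrobp and Fcer1g, had class medians of 3.08 to 7.38%, 2.99 to 5.16% and 3.12 to 11.6% of the macrophage level at those times. At day 30 none of the 30 C1q values was above its class median of the background genes. At day 2 only C1qc in the Ncam1 gate was above it, 6.68 against 5.29%. At day 7 it was C1qc in the injured proximal tubule gate, 3.18 against 2.99%, and in fibroblasts, 5.41 against 5.16%.

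The shares of the 3 chains in macrophages were near those of the thick ascending limb gate, whereas the proximal tubule gate had a larger share of C1qc. C1qa, C1qb and C1qc gave 32.6, 43.9 and 23.4% of C1q UMIs in day 2 macrophages, and 26.8, 48.2 and 25% in the day 2 thick ascending limb gate. At day 30 the shares were 38.3, 37.1 and 24.6% in macrophages and 37.9, 41.5 and 20.5% in the thick ascending limb gate. In the proximal tubule gate they were 30.6, 35.5 and 33.9% at day 2, from 62 UMIs, and 37.2, 35.5 and 27.3% at day 30. Day 7 gave 34.6, 35.3 and 30.0% there, against 39.5, 37.5 and 23.0% in macrophages. Whether cells of those classes transcribe C1q themselves was not tested. The untreated urothelium gate had 210 C1q UMIs, of which 91.9% lay in 3 of 196 cells, and C1qa stood there at 39.4 CPM untreated, 10.8 at day 2 and 61.9 at day 30. Those 3 cells had 4002 CPM of the background myeloid genes without Plac8, against 8.86 CPM in the rest. Plac8 was left out of this sum here and below, and stood at 2222% of the macrophage level in day 7 fibroblasts.

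**Figure D2:**
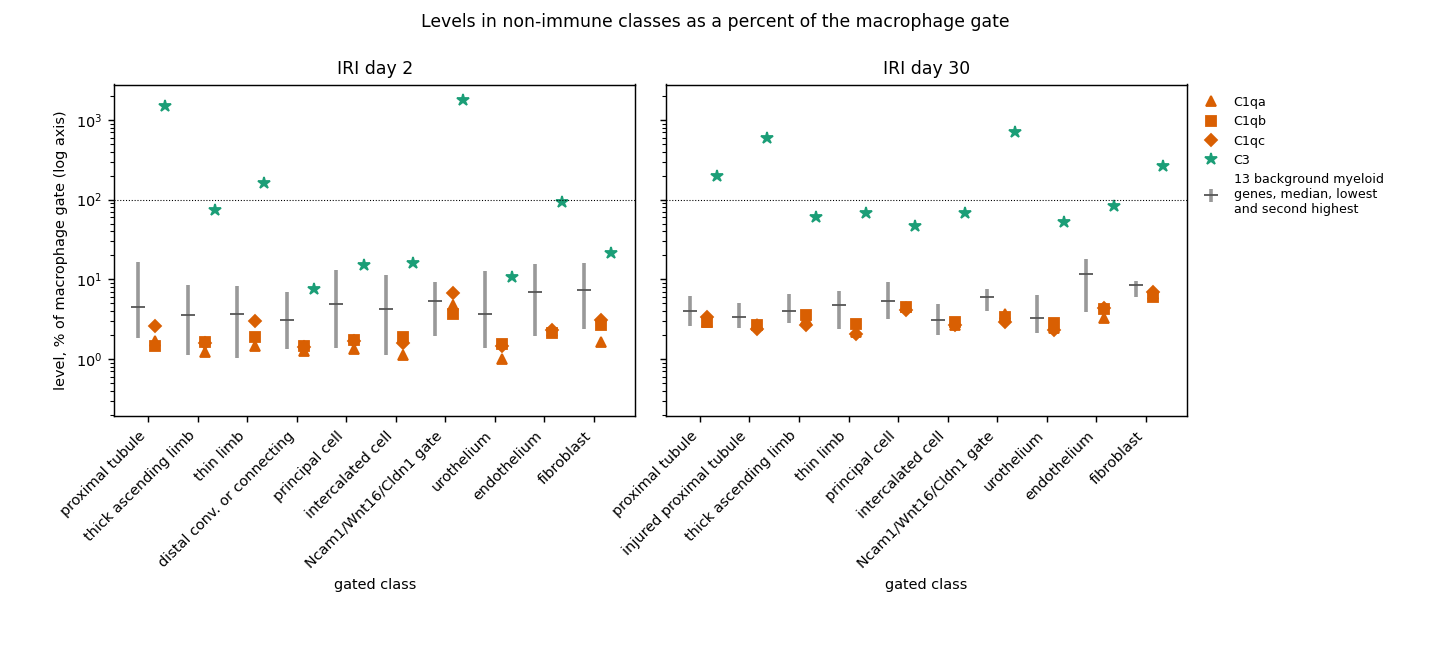
Level of the C1q chains and C3 in non-immune classes as a percentage of the macrophage level of the same library (log axis), at day 2 and day 30; the grey bar spans the 13 background myeloid genes from the lowest to the second highest, with their median as a tick, and the dotted line marks 100%. In non-immune classes C1q sits within or just below the grey bars, 0.996 to 6.68% at day 2 and 2.06 to 6.95% at day 30, whereas C3 passes the 100% line in the proximal tubule and Ncam1 gates at both times, in the thin limb at day 2 and in fibroblasts at day 30.

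The proteases that C1q acts through were highest in stromal cells and were also read, at lower levels, in proximal tubule cells. C1ra and C1s1 encode C1r and C1s. In the fibroblast gate, which had 0 untreated cells and 135, 60 and 160 cells at days 2, 7 and 30, C1ra stood at 105 CPM (89.6-123), 29 (20.8-39.3) and 110 (93.7-128). C1s1 stood at 176 CPM (156-199), 68.6 (55.6-83.7) and 318 (289-348). Day 7 was lowest for both, and neither differed 2-fold at day 30 from day 2. At day 7 injured proximal tubule cells had 18.6 CPM of C1ra (16.4-21.0) and 11.5 of C1s1 (9.79-13.5). Untreated proximal tubule had 1.10 and 0.380 CPM. Both genes stayed under the minimum of 20 CPM there and were not called. C1ra in fibroblasts was 1.56-fold (1.09-2.18) that of the injured gate at day 7. In untreated kidneys both were highest in the pericyte or smooth muscle gate of 74 cells, at 33.1 CPM for C1ra and 85.0 CPM for C1s1. The Ncam1 gate had 35.3 CPM of C1s1 at day 30, against 58.9 CPM at day 2. Masp1 and Masp2, proteases of the lectin pathway, had 25 and 190 UMIs in all kept cells and reached at most 1.96 and 2.08 CPM in any compared class.

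Ptx3, a soluble pentraxin that binds C1q, was an endothelial transcript of day 2. It stood at 0 CPM in untreated endothelium, 36.3 CPM (28.3-46.0) at day 2 and 0 at day 30, with 1 endothelial cell at day 7. Against a floor of 3 counts in the untreated library it was at least 21.0-fold higher at day 2. Endothelium held 80.2% of the Ptx3 UMIs of day 2. No other compared class passed 2.36 CPM at any time.

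C3, on which all 3 pathways converge and which lies on the minus strand of chromosome 17 (57203970-57228136), was higher in the proximal tubule gates of every injured library. In the proximal tubule gate it stood at 6.58, 231, 370 and 155 CPM from untreated to day 30. Every injured library was far above the untreated one, and day 7 was highest. The folds over untreated cells were 35.1 (28.6-43.2), 56.2 (47.4-66.9) and 23.6 (19.7-28.4). The injured proximal tubule gate, set by Havcr1, Vcam1, Krt20 and 5 other markers, had 504 cells at day 7 and 399 at day 30. It held 511 and 466 CPM of C3 there, which is 77.6-fold (66.2-91.5) and 70.8-fold (60.2-83.8) over untreated proximal tubule cells. The comparison crosses gates, since only 5 untreated cells passed the injured one. The Ncam1 gate had 561 CPM at day 30, against 277 CPM at day 2, a 2.02-fold (1.73-2.39) difference that fell under 2-fold under several settings.

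C3 was spread over most cells of the injured gate and was concentrated in few proximal tubule cells at day 2. A C3 UMI was found in 90.5% of injured proximal tubule cells at day 7 and 81.2% at day 30, and in 51.8 and 47.1% after thinning. In the proximal tubule gate the thinned shares were 1.10, 14.3, 34.7 and 18.3% from untreated to day 30, against 3.31, 32.1, 71.3 and 50.4% unthinned. Day 2 macrophages gave 3.88% after thinning. The median cell had 346 CPM of C3 at day 7 and 259 at day 30 in the injured gate, and 448 CPM in the Ncam1 gate at day 30. At day 2, 9 of the 84 proximal tubule cells held 83.4% of the 241 C3 UMIs. Those 9 cells had 2164 CPM of the background myeloid genes without Plac8, against 753 CPM in the rest.

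Lower C3 was read in other classes, with the highest level at day 30. In the thick ascending limb gate C3 stood at 0.622, 11.5, 25.4 and 48.4 CPM from untreated to day 30, 77.9-fold (26.2-381) higher at day 30 than untreated. Principal cells had 0.877, 2.31 and 36.6 CPM untreated, at day 2 and at day 30, intercalated cells 2.97, 2.44 and 54.7 CPM, and urothelium 6.87, 1.66 and 41.3 CPM. Over the whole library C3 averaged 8.55, 34.1, 259 and 208 CPM in time order, so the levels of these classes at day 30 were 17.6 to 26.4% of the library's own. With 30% of the library's mean profile taken off, C3 was no longer called at day 30 in any of these 4 classes or the thin limb. Levels under 30% of the library's own fall to 0 there by construction, so this setting cannot decide whether these classes hold C3. The background genes had a median of 11.85, 14.84, 9.09 and 9.25% of the library's own level in these 4 classes, and 11.89% in the thin limb. Fibroblasts had 3.27, 34.7 and 207 CPM at days 2, 7 and 30, 63.4-fold (26.9-197) higher at day 30 than at day 2. In day 30 fibroblasts 10 of 160 cells held 49.5% of C3, and the median cell held 0. Those 10 cells had 6477 CPM of the background myeloid genes without Plac8, against 1628 CPM in the rest.

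Among immune cells, day 2 neutrophils had 90.7 CPM of C3, and macrophages had 15.4, 33.8 and 79.5 CPM at days 2, 7 and 30. The macrophage level was 5.15-fold (4.65-5.72) higher at day 30 than at day 2 and was called under every alternative. The gated class that held most C3 UMIs changed with time. Neutrophils held 43.9% and macrophages 17.3% of them at day 2, injured proximal tubule cells held 55.1% at day 7, and the Ncam1 gate held 27.6% at day 30. Ungated cells held 20.1, 32.5 and 36.9% of C3 UMIs at days 2, 7 and 30, at day 30 more than any gated class. These shares also depend on how many cells of each class a library holds.

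**Figure D3:**
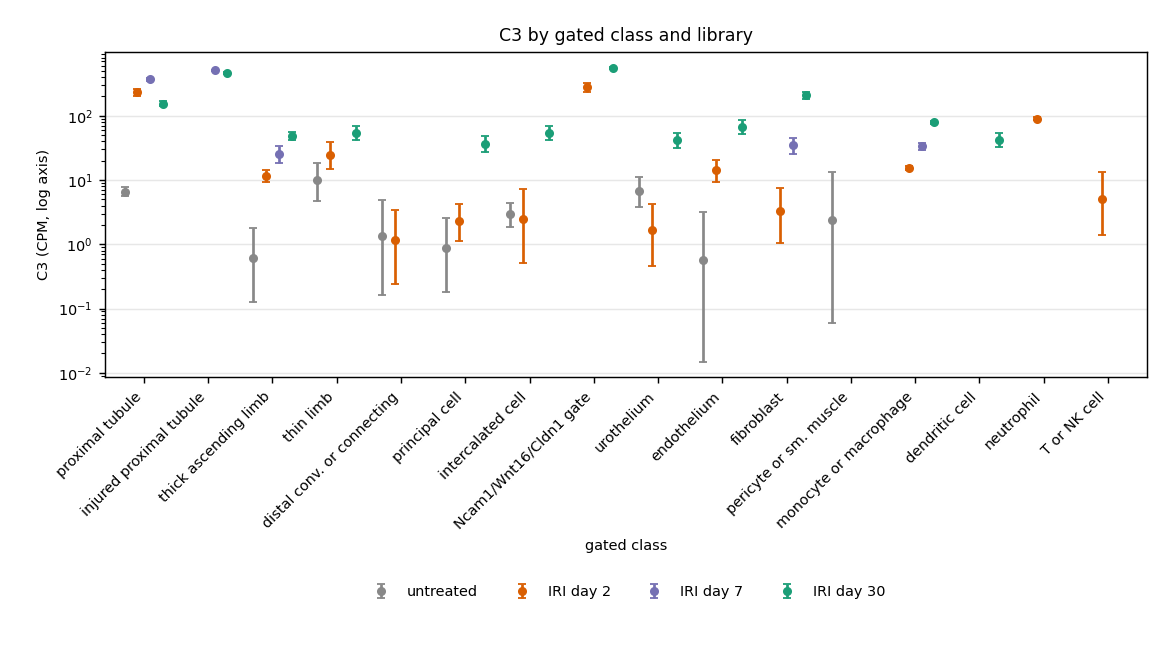
C3 in CPM (log axis) by gated cell class in the untreated, IRI day 2, day 7 and day 30 libraries; points are single libraries, bars are 95% Poisson intervals of counting error, and values of 0 are not drawn. The proximal tubule gate lies between 155 and 370 CPM in the injured libraries and at 6.58 CPM untreated, and the injured proximal tubule and Ncam1 gates reach 511 and 561 CPM.

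C2 and C4b, the substrates of C1s, were also read in tubule cells. C2 stood at 14.7, 38.3, 34.4 and 17.7 CPM in the proximal tubule gate from untreated to day 30. It was 2.60-fold (1.83-3.62) higher at day 2 and 2.34-fold (1.84-2.94) at day 7 than in untreated cells. Injured proximal tubule cells had 42.4 CPM at day 7, 2.88-fold (2.52-3.30), and 29 CPM at day 30, which did not meet the limit. C4b stood at 3.12, 35.5, 36.2 and 27.4 CPM in the proximal tubule gate, with 11.4-fold (7.44-17.1), 11.6-fold (8.50-15.9) and 8.79-fold (6.39-12.1) higher levels than untreated. Its level was lower in the injured gate, 5.18 CPM at day 7 and 10.2 at day 30. Macrophages had 3.92, 21.4 and 12.6 CPM of C4b at days 2, 7 and 30. The reads of C4b may include those of its near-identical copy C4a, whose own level is not given here. In fibroblasts C2 had 28.0 CPM at day 30, against 10.5 CPM at day 2, 2.68-fold (1.47-5.11) higher.

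The alternative pathway was uneven. Cfb encodes factor B, which pairs with cleaved C3, and lies beside C2 on chromosome 17. It stood at 41.6, 54.6, 37.7 and 20.4 CPM in the proximal tubule gate and was lower at day 30 than in untreated cells, 0.491-fold (0.378-0.629). This call was lost with 10 or 30% of the library's mean profile subtracted, under a limit of 20% mitochondrial UMIs, where Cfb was at 0.585-fold, and under the 3-fold limit. Injured proximal tubule cells had 35.9 CPM at day 7 and 15.1 at day 30, the last 0.363-fold (0.284-0.458) of untreated proximal tubule. C3 and Cfb thus took opposite directions in the injured gate at day 30. Proximal tubule cells held 81.9% of the Cfb UMIs of untreated kidneys. Cfd, the protease factor D that cleaves factor B, had 5 UMIs in all kept cells. Cfp encodes properdin, which stabilises the C3 convertase, and was a myeloid transcript at 445 CPM (438-453), 264 (253-276) and 248 (240-256) in macrophages at days 2, 7 and 30. Neutrophils had 193 CPM at day 2 and dendritic cells 111 CPM at day 30.

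Of the terminal components on the list, C6 and C7 were fibroblast transcripts. C7, which anchors the attack complex in a membrane, stood at 104 CPM (88.4-121) in fibroblasts of day 2, against 24.8 (17.2-34.4) and 21.9 CPM (15.0-30.9) in those of days 7 and 30. It was lower at day 30 than at day 2, 0.210-fold (0.139-0.309). Fibroblasts held 83.7, 81.4 and 64.0% of C7 UMIs at those times. C6 stood at 17.6, 1.41 and 16.4 CPM in fibroblasts and stayed below the minimum of 20 CPM. Both had at most 1.35 CPM in other compared classes.

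Soluble regulators split between stroma and tubule. Serping1 encodes C1 inhibitor, which inactivates C1r and C1s. It stood at 623 CPM (584-664), 555 (517-596) and 1278 (1221-1338) in fibroblasts at days 2, 7 and 30, and was 2.05-fold (1.90-2.22) higher at day 30 than at day 2. The call fell under 2-fold when the median of all measured genes was set to 1 and when doublet calls were kept. A Serping1 UMI was found in 92.6, 98.3 and 97.5% of fibroblasts, and they held 64.3, 77.7 and 60.9% of all its UMIs. Untreated pericytes had 196 CPM (156-243). In endothelium Serping1 stood at 8.65, 19.0 and 41.4 CPM untreated, at day 2 and at day 30, 4.78-fold (2.60-9.28) higher at day 30 than untreated.

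Cfi encodes factor I, the protease that inactivates C3b and C4b. In the proximal tubule gate it stood at 1.35, 16.3, 70.2 and 18.0 CPM from untreated to day 30. Day 7 was highest, 52.0-fold (35.7-78.2) above untreated cells. Injured proximal tubule cells had 29.3 CPM at day 7 and 29 at day 30, 21.7-fold (15.1-32.2) and 21.5-fold (14.6-32.6) over untreated proximal tubule. Cfi remained at or below 13.7 CPM in all other compared classes.

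The membrane-bound regulators Cd55, Cd59a, Cd46 and Cr1l protect host cells from complement. Cd59a, which blocks assembly of the attack complex, stood at 128 CPM (118-139), 61.8 (56.3-67.6), 100 (86.2-116) and 77.7 (69.0-87) in the thick ascending limb gate from untreated to day 30. It was lower at day 2 than untreated, 0.481-fold (0.426-0.544), and the later levels did not meet the limit. In the thin limb it had 110, 37.7 and 39.9 CPM untreated, at day 2 and at day 30, lower by the size rule at both times, 0.344-fold (0.220-0.522) and 0.364-fold (0.252-0.520). Endothelium went the other way, with 83.7, 83.8 and 172 CPM, 2.06-fold (1.64-2.59) higher at day 30 than untreated. This call fell under 2-fold in 4 alternatives besides the 3-fold limit, with values down to 1.79-fold. The injured gate held 31.7 and 30.4 CPM on days 7 and 30, against 7.85 CPM in untreated proximal tubule, 4.04-fold and 3.87-fold.

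Cd55, which speeds decay of convertases, was highest in urothelium at 75.1, 71.1 and 64.9 CPM untreated, at day 2 and at day 30, with no call. Principal cells had 24.9 CPM at day 30, against 8.77 CPM untreated, 2.84-fold (1.68-4.8) higher. Fibroblasts had 23.2 CPM at day 30, against 9.15 CPM at day 2, 2.54-fold (1.33-5.12) higher. Cr1l, the rodent regulator known as Crry, was measured in all 29 comparisons and called in none. Its levels ran from 35.4 CPM in untreated proximal tubule to 162 CPM in day 30 endothelium, with 149 CPM in day 2 neutrophils. Cd46, in mice mainly a gene of the testis, had 640 UMIs and at most 8.77 CPM. Reads of Cd59a, Cd55, C1ra and C1s1 may include those of their close copies Cd59b, Cd55b, C1rb and C1s2.

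Receptors were carried by neutrophils and macrophages. C5ar1, the receptor of the chemoattractant C5a, stood at 506 CPM (495-518) in the 2457 neutrophils of day 2, and at 216 (211-221), 72.7 (66.7-79.2) and 70.9 CPM (66.8-75.2) in macrophages at days 2, 7 and 30. It was lower in macrophages at day 30 than at day 2, 0.329-fold (0.308-0.350), and this held under every alternative with a value. The background subtraction by class takes 0% off macrophages and could not change this call. The unthinned share of macrophages with C5ar1 was 68.1, 58.4 and 34.8%, and 89.7% of neutrophils had it. C5ar2, its decoy-like relative, had 103 CPM (98.3-109) in neutrophils and 15.3, 6.13 and 7.12 CPM in macrophages. C3ar1, the C3a receptor, was instead a macrophage transcript at 250, 220 and 203 CPM, with 9.99 CPM in neutrophils.

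Itgam and Itgax encode the alpha chains of complement receptors 3 and 4, which bind the C3 fragment iC3b. Itgam stood at 525 CPM (513-536) in neutrophils at day 2 and at 275, 258 and 217 CPM in macrophages at days 2, 7 and 30. Itgax stood at 113 CPM (107-118) in neutrophils, and at 56.3 (53.8-58.9), 144 (135-153) and 223 CPM (216-231) in macrophages. The macrophage level of Itgax was 3.97-fold (3.75-4.2) higher at day 30 than at day 2, and dendritic cells had 115 CPM at day 30. C5ar1 and Itgax thus moved in opposite directions in the macrophage gate, while Itgam and C3ar1 stayed within the 2-fold limit. Vsig4, a macrophage receptor of C3b, had 5 UMIs. Itgam overlaps a second gene row on chromosome 7, which took 17.9% (17.1-18.7) of the reads of both rows in neutrophils and 2.37 to 3.31% in macrophages.

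**Figure D4:**
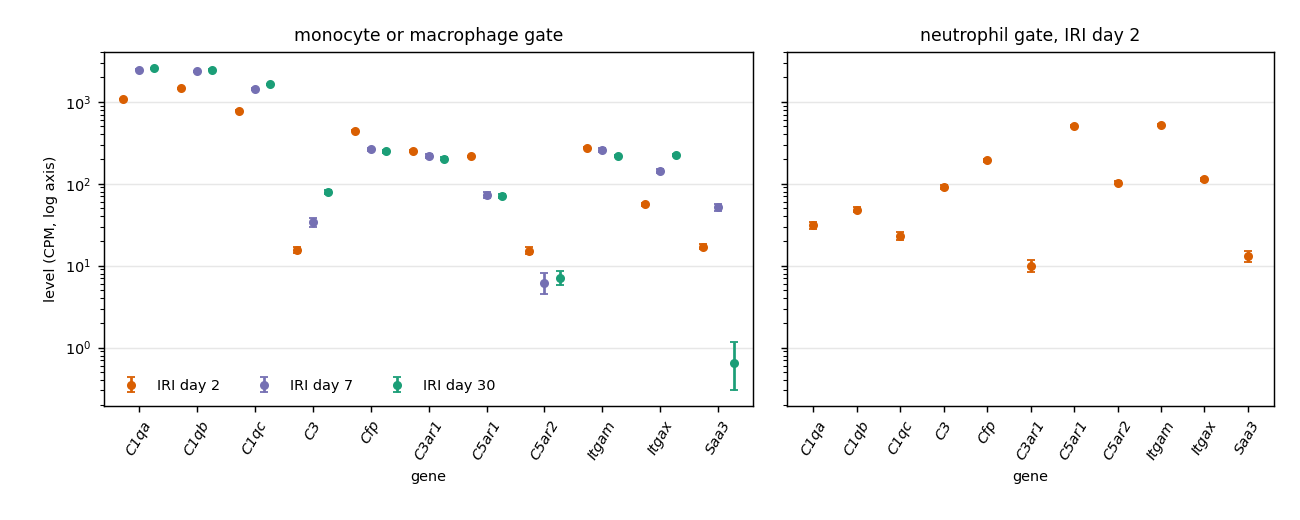
CPM (log axis) of 11 complement genes in the macrophage gate at days 2, 7 and 30 and in the neutrophil gate at day 2; points are single libraries with 95% Poisson intervals. C1qa runs at 1085, 2472 and 2556 CPM and Itgax at 56.3, 144 and 223 CPM over time in macrophages, C5ar1 at 216, 72.7 and 70.9 CPM, and neutrophils lead in C5ar1, C5ar2 and Itgam.

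Myeloid receptor transcripts were low in other classes, where the background genes had medians of 3.08 to 7.38% at day 2. At that time the non-immune classes had 3.60 to 10.3% of the macrophage level of C5ar1, 1.5 to 4.86% of C3ar1 and 1.42 to 10.5% of Itgam. C5ar1 in the proximal tubule gate at day 2 had 20.1 CPM, against 0 in untreated cells, and 1 of 84 cells held 52.4% of its 21 UMIs. Endothelium at day 30 was higher than the other non-immune classes in Cfp, with 25% of the macrophage level where fibroblasts, the next, had 8.81%. Endothelial Cfp stood at 1.15, 23.7 and 62.0 CPM untreated, at day 2 and at day 30, 53.8-fold (14.3-454) higher at day 30 than untreated and at least 25.7-fold under every alternative with a value. The day 2 difference, 20.5-fold over untreated, turned to 0.0653-fold with 10% of the library's mean profile subtracted and to 0.420-fold with the background share subtracted. The day 30 level over that of day 2, 2.62-fold, turned to 0.718-fold with classes taken from clusters. Endothelial Itgax stood at 42.3 CPM at day 30, against 0 untreated, at least 24.5-fold. The background genes had a median of 11.6% in day 30 endothelium, the highest of any class.

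Saa3 is an acute-phase protein of macrophages listed with the members although it is no part of the cascade. It stood at 17.1, 51.6 and 0.642 CPM in macrophages at days 2, 7 and 30 and at 13 CPM in neutrophils. Macrophages held 92.7% of its UMIs at day 7. It was not measured in any of the comparisons, since it stayed under 20 CPM in macrophages of days 2 and 30 and untreated macrophages were fewer than 50.

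In counts per class, 10 members were measured in the proximal tubule gate at day 2, of which 8 were higher and 0 lower than untreated, where 14.6% of all measured genes were higher and 3.79% lower. The 8 were C1qb, C1qc, C2, C3, C4b, C5ar1, Cfp and Itgam. At day 7, 8 of 10 were higher and 0 lower, against 19.2 and 3.77% of all genes, and at day 30, 5 of 7 were higher and Cfb was lower, against 15.6 and 2.75%. In the injured gate 7 of 9 were higher at day 7, where 39.3% of all genes were higher and 10.8% lower than in untreated proximal tubule, and 6 of 9 were higher and Cfb lower at day 30, against 42.2 and 11.5%. At day 30 against day 2 in the proximal tubule gate, 3 of 11 were higher (the C1q chains) and 4 were lower (C2, C5ar1, Cfb and Itgam), against 6.69 and 5.4%. The median log2 difference from untreated proximal tubule was 1.5, 2.12 and 2.62 over the measured members at days 2, 7 and 30, and 0.27, 0.39 and 0.33 over all measured genes. A member under the minimum CPM in untreated cells is measured only if the injured library reaches that minimum. A high median over the measured members is therefore partly built in, and the same selection enters the counts of higher members. Over all 29 members the median was 0.33, 0.41 and 0.25, close to that of all measured genes. There the 10 CPM pseudocount holds unmeasured members near 0. Neither median can therefore decide whether the members rose as a set.

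In the thick ascending limb gate 3 members were measured at day 2, with C1qb higher and Cd59a lower, where 12.1% of all genes were higher and 10.4% lower. At day 7 the C1q chains and C3 were higher of 6 measured and 0 were lower, against 21.9 and 7.39% of all genes, and at day 30 the C1q chains and C3 were higher of 6 measured, against 23.8 and 7.83%. These comparisons share the untreated library. Set against day 2, day 30 had 4 of 6 higher and 0 lower, against 8.55 and 1.59%. In the thin limb 2 of 4 were higher and Cd59a lower at day 2, against 9.32 and 14.6%, and 4 of 6 were higher and Cd59a lower at day 30, against 10 and 8.99%. Set against day 2, thin limb cells of day 30 had 3 of 6 higher and 0 lower, against 11.1 and 4.74%.

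Principal cells had 1 of 3 higher and 0 lower at day 2, where 7.79% of all genes were higher and 7.91% lower. At day 30 the C1q chains, C3 and Cd55 were higher of 7 measured, against 10.7 and 5.46%, and against day 2 there were 4 of 7 higher and 0 lower, beside 5.69 and 1.27% of all genes. Intercalated cells had 1 of 3 higher and 0 lower at day 2, against 10.2 and 7.52%, and at day 30 the C1q chains and C3 were higher of 6, against 10.3 and 4.64%. Set against day 2, intercalated cells of day 30 had 4 of 6 higher and 0 lower, beside 5.18 and 3.23%. Urothelium had 0 of 5 higher and C1qa lower at day 2, against 3.26 and 5.52%, and 2 of 7 higher and 0 lower at day 30, against 4.45 and 4.48%. The lower C1qa of day 2, at 0.275-fold, turned to 3.82-fold when untreated doublets were called with a threshold borrowed from injured libraries, an alternative chosen after seeing the data. Its day 30 cells had 4 of 7 higher and 0 lower than those of day 2, against 4.22 and 2.2%. Distal convoluted or connecting tubule had 1 of 3 higher and 0 lower at day 2, against 17.1 and 9.17%.

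Macrophages at day 30 against day 2 had 10 measured members, of which C1qa, C1qc, C3 and Itgax were higher and C5ar1 was lower, where 7.61% of all genes were higher and 6.3% lower. Their median log2 difference was 0.36 over the 10 measured members, 0.025 over all 29 members and -0.03 over all measured genes. Fibroblasts had 16 measured, 8 higher (the C1q chains, C2, C3, C3ar1, Cd55 and Serping1) and 2 lower (C5ar1 and C7), against 10.6 and 5.82%. C5ar1 there, at 0.277-fold, turned to 1.04-fold with 10% of the library's mean profile subtracted. Endothelium had 4 of 6 higher and 0 lower at day 2 (C1qa, C1qb, Cfp and Ptx3), against 7.22 and 8.79%, and 9 of 10 higher and 0 lower at day 30, against 9.22 and 9.65%. At day 30 against day 2 endothelium had 8 of 11 higher and Ptx3 lower, against 6.24 and 4.69%. Endothelial C3, 4.71-fold higher at day 30 than at day 2, turned to 0.271-fold with the background share subtracted. The Ncam1 gate had C3 higher of 9 measured and 0 lower at day 30 against day 2, where 6.05 and 5.25% of all genes were called. 

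In all, 133 calls were made, 119 higher and 14 lower. When free RNA was taken off in 3 ways, 36 of them were still called each time, and 97 were lost or had no value in at least 1. A ratio has no value once subtraction leaves 0 on either side. Where that is the reference side, the call need not have failed, so the 97 are not a count of failed calls. Of member ratios with a value, called or not, 11 of 131 lost a call with 10% subtracted and 2 reversed. With 30% these were 5 of 105 and 0, and with the background share 12 of 126 and 2. The 36 include C3 and C4b in the proximal tubule at every time, C2 at days 2 and 7, Cfi at day 7, C3 and Cfi in the injured gate, Ptx3 in day 2 endothelium, and the macrophage calls of C1qa, C1qc, C3, Itgax and C5ar1. They also include C2, Cd55, Serping1 and C7 in fibroblasts and the lower Cd59a in the thick ascending and thin limbs. Thin limb comparisons had no value under the stricter gate or with classes taken from clusters, nor did proximal tubule at day 7 under the latter. The C1q calls in tubule gates are not among them. In 1 of the 3 ways, the background share of each class, 0% was taken off macrophages by its rule. The macrophage calls could therefore not change under it. It also took 0% off untreated thin limb cells and 2.58% off untreated thick ascending limb cells.

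**Figure D5:**
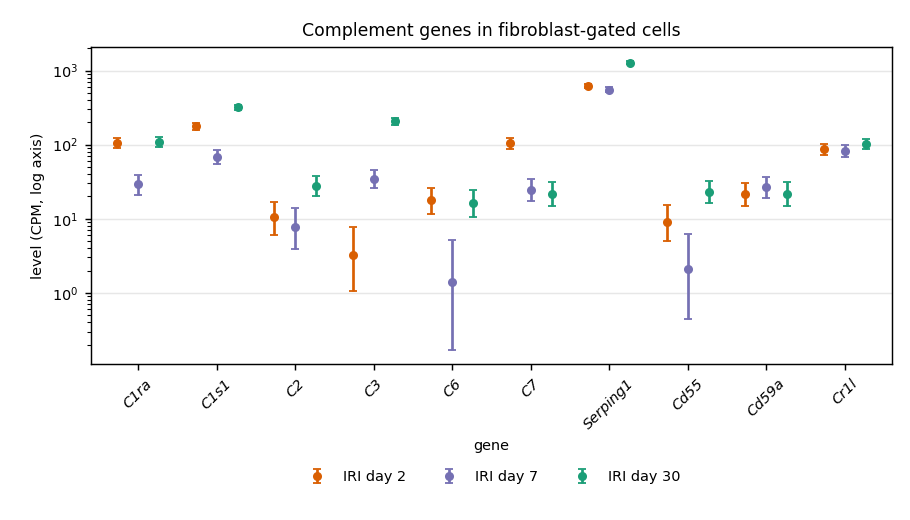
CPM (log axis) of 10 complement genes in the fibroblast gate at days 2, 7 and 30 (135, 60 and 160 cells); points are single libraries with 95% Poisson intervals. Serping1 runs at 623, 555 and 1278 CPM over time and C7 at 104, 24.8 and 21.9 CPM.

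Pathway genes beyond the 29 were read from 4 lists, of which 11 of 12 recognition genes, 5 of 5 terminal genes, 13 of 13 regulators and 7 of 7 receptors were in the files. Among the regulators, 2 of 2 measured in the proximal tubule gate were higher at days 2 and 7 than untreated (Clu and Cpn1). Of all measured genes there, 14.6 and 19.2% were higher at those times. Cpn1, a subunit of the carboxypeptidase that trims C3a and C5a, stood at 30.2, 90.1, 290 and 131 CPM in the proximal tubule gate, with folds over untreated of 2.98 (2.38-3.70), 9.59 (8.66-10.6) and 4.34 (3.84-4.89). Of the terminal genes C8a stood at 21.5, 0, 0 and 14.0 CPM in the proximal tubule and C8g at 31.2, 4.79, 15.9 and 17.1 CPM. Of 2 measured terminal genes, both were lower at day 2, C8a alone at day 7, and 0 at day 30, and both were lower in the injured gate at days 7 and 30. Of all measured genes, 3.79, 3.77 and 2.75% were lower in the proximal tubule gate, and 10.8 and 11.5% in the injured gate. Clu itself, which binds the attack complex, stood at 47.7, 5552, 1870 and 910 CPM in the thick ascending limb, where the reporter chose the cells. Among receptors, Itgb2, the beta chain shared by complement receptors 3 and 4, had 228, 313 and 339 CPM in macrophages and 533 CPM in neutrophils. Cd93, a receptor of endothelium and myeloid cells once ascribed to C1q, had 370, 727 and 749 CPM in endothelium untreated, at day 2 and at day 30. Of the receptors, 3 of 5 measured were higher in endothelium at day 30 than untreated (Cd93, Itgb2 and Lrp1), beside 9.22% of all genes. In macrophages 1 of 5 was lower at day 30 than at day 2 (Cd93), beside 6.3% of all genes. In the recognition list Pcsk6, a proprotein convertase, was the one gene called, lower in the thick ascending limb at days 2, 7 and 30. It had 77.6, 4.75, 2.16 and 2.11 CPM from untreated to day 30, where 10.4, 7.39 and 7.83% of all genes were lower than untreated. In that list 0 genes were measured in proximal tubule, macrophage or endothelium comparisons, and in fibroblasts 1, Colec12, was measured and not called.

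Cells with a Clu UMI were set against cells without one in the same class and library, after thinning. Of 107 gene and class pairs over 15 sets, 2 were higher and 2 lower by the size rule. No share over all genes is set beside these counts, so they are not read as a result about the members. Cd55 in untreated proximal tubule had 25.8 CPM with Clu and 11.1 without, 2.32-fold (1.06-4.57). Cr1l in the injured gate at day 7 had 64.2 and 27.8 CPM, 2.31-fold (1.18-4.87), and Cfi there had 12.2 and 37.0 CPM, 0.328-fold (0.114-0.843). Saa3 in day 7 macrophages had 0 with Clu and 45.6 CPM without, from 22 UMIs. C3 in the injured gate at day 30 had 607 CPM with Clu and 408 CPM without, 1.49-fold (1.21-1.83), and at day 7 it had 535 and 514 CPM, 1.04-fold (0.873-1.24).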

How the data were processed

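The deposited matrices hold raw counts of UMIs per gene and barcode from 10x Genomics 3′ v3.1 libraries of GFP-positive sorted kidney cells, not normalized. The submitters' processing notes name Cell Ranger 7.0.1 and build mm10. Annotation, strand setting and the authors' rule for keeping barcodes are not named there. The members and gene lists were chosen with earlier results of these data known, and the scoring rule of the gates was set after seeing the cells.

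Barcodes were kept with at least 500 UMIs, 300 genes and at most 50% mitochondrial UMIs. Scrublet (scanpy 1.11.5, Python 3.11.15) removed 630, 10 and 584 barcodes at days 2, 7 and 30. In the untreated library it marked 1 of 9286, so it did not work there. Each of 18 panels was scored as the mean of log-scaled counts, each marker relative to its top 200 cells. A cell was gated if its best score was at least 0.2 and 1.5 times the second. Counts were summed per class and library. Intervals are exact 95% (Poisson, conditional binomial for ratios, Clopper-Pearson for shares) and cover counting error only. A gene at 0 was given a floor of 3 counts in its library, and log2 medians used a pseudocount of 10 CPM. Shares were thinned to 2000 UMIs per cell.

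All 29 members are accounted for, with values in full for those measured. Of other pathway genes at most 4 per list are named, the highest by level, except for a regulator that is not reported here. Free RNA was estimated from the library's mean profile over cells, since empty droplets were not analysed here. The size rule was tested on simulated counts. In all, 12 alternatives were planned, and a borrowed doublet threshold and a class-wise background subtraction were added after seeing the data. Promoters are from RefSeq, and 7 members had none in the table.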

Additional observations from a re-analysis of the deposited data

Results flagged for a closer look

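In 3 cases a gene was called in opposite directions in different cell classes under the same comparison, and these differences were not tested, since each class had 1 library per group. C1qa was 10.5-fold higher in endothelium at day 2 than untreated and 0.275-fold in urothelium, where 3 of 196 untreated cells held 91.9% of all C1q UMIs, and the urothelial value turned to 3.82-fold with the borrowed doublet threshold. C2 was 2.68-fold higher at day 30 than at day 2 in fibroblasts and 0.461-fold in the proximal tubule gate. Cd59a was 2.06-fold higher at day 30 than untreated in endothelium and 0.364-fold in the thin limb. A second gene row that overlaps Itgam was not used in the comparisons and held 114 CPM in day 2 neutrophils, 17.9% of the reads of both rows, against 2.76% in day 2 macrophages.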

How the results depend on the processing

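No paired analysis was possible because each group has 1 library, and there was no replicate to leave out. Counts below are members called, and "late" marks day 30 against day 2; other days are against untreated cells. The lowest UMI total of a barcode differed between libraries, from 2335 to 18362, and a level near the floor of 3 counts in the untreated library bounds a fold poorly.

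Taking off free RNA and dropping the minimum CPM moved the most counts. With 10% of the library's mean profile subtracted, 26 of 58 counts moved by over 1.5 times. The count of higher members became 0 in principal cells, distal tubule, intercalated cells, thick limb and thin limb at day 2, thick limb at day 7, and proximal tubule and thin limb late. It became 1 in endothelium at day 2, intercalated cells at day 30 and late, thin limb at day 30, and urothelium at day 30 and late. It became 2 in proximal tubule at day 30 and thick limb at day 30 and late, 3 in proximal tubule at day 2 and 5 at day 7. Lower members became 0 in proximal tubule at day 30, 1 in fibroblasts late, and 2 in urothelium at days 2 and 30 and late in endothelium, proximal tubule and the Ncam1 gate. Endothelial Cfp at day 2 turned from 20.5-fold to 0.0653-fold, and fibroblast C5ar1 late from 0.277-fold to 1.04-fold.

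With 30% subtracted, 32 of 58 moved. Higher members became 0 in principal, intercalated, distal tubule, thick limb and thin limb cells at day 2, thick limb at day 7, and intercalated cells, thick limb, thin limb and urothelium at day 30. The late count was 0 in principal and intercalated cells, thick limb, proximal tubule, urothelium and the Ncam1 gate. It was 1 in endothelium at day 2, principal cells at day 30 and thin limb late, and 3 in endothelium at day 30 and late and in proximal tubule at day 30. It was 4 in proximal tubule at days 2 and 7 and in fibroblasts late. Lower members became 0 in proximal tubule at day 30, 1 late in fibroblasts and the Ncam1 gate, 2 in thin limb at day 2 and endothelium late, and 3 in urothelium at days 2 and 30.

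With the background share subtracted, an alternative chosen after seeing the data, 29 of 58 moved. Higher members became 0 in principal cells, distal tubule, intercalated cells and thick limb at day 2, thick limb at day 7, and late in principal cells, proximal tubule and thin limb. They became 1 in endothelium and thin limb at day 2, in principal cells, intercalated cells, thick limb and thin limb at day 30, and late in intercalated cells, thick limb and urothelium. They became 2 in proximal tubule at day 30, 3 in proximal tubule at day 2 and endothelium at day 30 and late, 4 in proximal tubule and the injured gate at day 7, and 5 in fibroblasts late. Lower members became 1 late in fibroblasts and the Ncam1 gate, 2 in proximal tubule late, and 4 in urothelium at days 2 and 30. Endothelial Cfp at day 2 turned to 0.420-fold, and endothelial C3 late from 4.71-fold to 0.271-fold.

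With no minimum CPM, 32 of 58 moved. Higher members became 2 in the Ncam1 gate late, 3 in urothelium at day 2, 5 in distal tubule at day 2 and proximal tubule late, 6 in intercalated cells at day 2, and 7 in thick limb at day 7 and principal cells late. They became 8 in principal cells at day 2, 9 in endothelium and thick limb at day 2 and thick limb late, 11 in macrophages late, 12 in thick limb at day 30, 13 and 14 in proximal tubule at days 30 and 7, and 15 and 14 in the injured gate at days 7 and 30. Lower members became 1 in endothelium at days 2 and 30, proximal tubule at day 2, the injured gate at day 7, thick limb at day 30, and late in principal cells, thick limb and the Ncam1 gate. They became 2 in proximal tubule at day 7, thick limb at day 2, the injured gate at day 30 and urothelium late, and 3 in urothelium at day 2 and late in endothelium and macrophages.

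A 3-fold limit moved 13 counts. Higher members became 0 in the Ncam1 gate late, 1 in thin limb at day 2 and late and urothelium at day 30, 2 in macrophages, 4 in fibroblasts and 5 in endothelium, all late. Lower members became 0 in proximal tubule, thin limb and the injured gate at day 30 and in thick and thin limb at day 2, and 2 in proximal tubule late. CPM without mitochondrial genes, a limit of 20% mitochondrial UMIs, the stricter gate and scaling by the median of all genes each left 1 member higher in urothelium at day 30. The 20% limit also left 0 lower in proximal tubule at day 30, and median scaling gave 1 lower in thick limb at day 30. The stricter gate gave 4 higher in proximal tubule at day 2 and, late, 1 lower in fibroblasts and 2 lower in endothelium. Too few cells were left under it for 4 comparisons, those of the thin limb and the Ncam1 gate late.

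Only cells above 18362 UMIs left 2 higher and 2 lower in macrophages late, and 23 comparisons had too few cells. Keeping doublet calls gave 2 higher in principal and intercalated cells at day 2, 8 in principal cells at day 30 and 3 in the Ncam1 gate late. Classes taken from clusters gave 7 higher in endothelium and 4 in proximal tubule at day 2, and, late, 2 higher in macrophages, 0 higher and 1 lower in the Ncam1 gate, and 3 lower in endothelium. With these classes 4 comparisons had too few cells, those of the thin limb and proximal tubule at day 7. Endothelial Cfp late turned from 2.62-fold to 0.718-fold under the cluster setting. The highest class over the next also changed under it, for C1qa and C1qb in untreated urothelium from 6.74 and 16.5 to 0.0136 and 0.0140, and for Cd59a in day 7 thick limb from 3.16 to 0.963. The lead of neutrophils in Itgax at day 2 went from 2.01 to 1.77, and that of urothelium in Cd55 at day 30 from 2.61 to just under 2.00. The borrowed doublet threshold, chosen after seeing the data, gave 1 higher and 0 lower in urothelium at day 2 and 4 higher at day 30, and turned C1qa there at day 2 from 0.275-fold to 3.82-fold. The cause of each change was not tested, beyond what a setting does by its construction.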
